A study of Danio rerio with 6 samples.

Results

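RNA of 5 epidermal growth factor (EGF) family ligands and 4 ErbB receptors was examined in GFP+ cells sorted from adult zebrafish retinas. The genes were taken by exact name, as hbegfa, hbegfb, tgfa, nrg1 and btc for the ligands and egfra, erbb2, erbb3a and erbb3b for the receptors. All 9 were found, each as a single gene among 27152 gene names. The 6 libraries form 3 groups of 2. The injured + apobec2 KD group holds needle poke injured retinas at 2 days post injury (dpi) that received a morpholino against apobec2a and apobec2b. The injured group holds needle poke injured retinas at 2 dpi, and its column names refer to a control morpholino. The uninjured group holds retinas without a poke, collected as controls. All 6 libraries carry the label gfap:GFP, a transgene in which the promoter of the glial filament gene gfap drives GFP in Müller glia (MG), the radial glia of the retina. The study instead describes the injured cells as sorted from fish whose GFP is driven by the tuba1a promoter, a reporter of MG that have entered the injury response. A difference between injured and uninjured cells thus cannot be told apart from a difference between reporter lines. Nor can it be told apart from an effect of the control morpholino, since no morpholino is named for the uninjured group. Within each group the libraries are named a and b by the index in the table's columns, and no label says whether they came from separate fish. A limma p-value thus rests on the spread between these libraries, drawn for each gene toward that of all genes tested. It may not measure the spread between fish.

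EGF family ligands are made as membrane-bound precursors, and metalloproteases of the Adam family release many of them from the cell surface. Hb-egf, Tgfa and betacellulin bind the EGF receptor, and some EGF receptor ligands, such as betacellulin, also bind ErbB4. Neuregulins bind ErbB3 and ErbB4, while ErbB2 has no known soluble ligand and acts as the partner of the others. In the injured zebrafish retina Hb-egf is known as an early factor that drives MG to dedifferentiate and divide.

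The table gives FPKM, the fragments of a gene scaled to its transcript length and to all mapped fragments, which can be compared between genes and do not show library depth. The FPKM of a library summed to between 946401 and 1171101. These sums differed by group, at 1128958 and 1171101 in injured libraries and 985941 and 975192 in uninjured libraries. In injured + apobec2 KD libraries they were 946401 and 962887, so both injured libraries lay above all others. Summed MG markers were high in every library, at 2892 to 3875 FPKM over 13 genes. So were the sums for markers of rods (11 genes, 4669 to 13314 FPKM) and cones (8 genes, 2466 to 5352 FPKM), which are not genes of MG. Single MG markers differed, and slc1a3b was at 0.0 FPKM in both uninjured libraries. Of 12 MG markers tested, 7 were higher and 5 lower in injured over uninjured cells (limma adjusted p under 0.05). Over all genes tested 29.7% were higher and 19.0% lower. The RNA of the knockdown targets does not check the labels. The gene apobec2a was at 0.39 and 0.38 FPKM in injured + apobec2 KD libraries, 0.25 and 0.51 FPKM in injured libraries and 0.15 and 0.41 FPKM in uninjured libraries. A row named APOBEC2 (2 of 2), which was picked with its values in view, had 16.8 and 15.8, 8.6 and 8.19, and 1.12 and 0.0 FPKM in that order of groups, and blocking translation or splicing with a morpholino can leave RNA levels as they were.

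**Figure D1:**
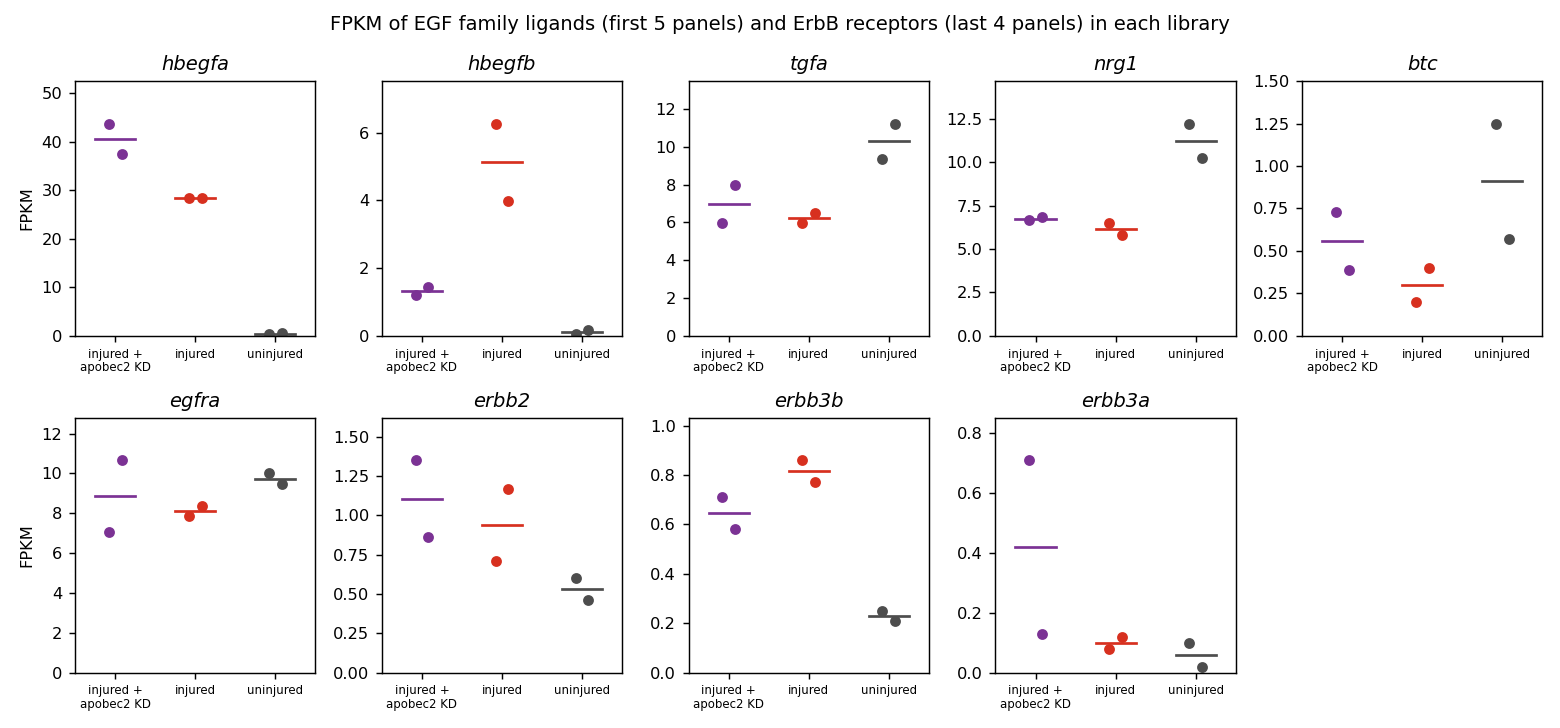
FPKM of the 9 genes, 1 panel a gene with its own linear y axis, where each point is a library, each bar a group mean, and groups run injured + apobec2 KD, injured and uninjured from left to right. The hbegfa means are 40.7 and 28.4 FPKM in the injured groups and 0.44 FPKM in uninjured cells, while the points of egfra lie between 7.05 and 10.7 FPKM in all 6 libraries.

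The Hb-egf genes gave the largest changes among the tested genes of the family after injury. The gene hbegfa (chromosome 14, 7015234 to 7018245, in a genome build that the sources used here do not name) encodes heparin-binding EGF-like growth factor a. It had 28.5 and 28.3 FPKM in injured libraries a and b, against 0.31 and 0.57 FPKM in uninjured libraries a and b. Both injured libraries lay far above both uninjured ones, and the library ratios ran between 49.7 and 91.9. On the log2(FPKM + 1) scale used for all tests, which understates the change of low genes, hbegfa was higher by 4.36 in injured cells (SE 0.13, limma adjusted p = 0.000527), and only 63 of the 16849 genes tested had a larger increase. In the sorted libraries, more cells that express a gene and more of its RNA in each cell cannot be told apart. Within a library, hbegfa exceeded 89.6% and 89.5% of all gene names in injured cells, against 31.0% and 37.2% in uninjured cells.

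The second copy, hbegfb (chromosome 21, 28905355 to 28913008), was below hbegfa in every library and also rose after injury. It had 6.27 and 3.98 FPKM in injured libraries, against 0.05 and 0.18 FPKM in uninjured libraries. The groups did not overlap, and the increase was 2.43 on the log2(FPKM + 1) scale (SE 0.21, limma adjusted p = 0.00219). Since both genes were under 1 FPKM in uninjured cells and a gene needed 1 FPKM in 2 of the 4 libraries to be tested, both entered the comparison only through the injured libraries. The hbegfa to hbegfb ratio was 4.55 and 7.12 in injured libraries, against 6.2 and 3.17 in uninjured libraries, where it rests on FPKM values close to 0. These ranges overlap, and the ratio did not separate injured from uninjured cells (log2 difference 0.36, two-sided exact permutation test, p = 0.667, where the smallest p that 2 against 2 libraries allow is 0.333).

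The ligands tgfa and nrg1, which had the highest levels of the 5 ligands in uninjured cells, fell after injury. The gene tgfa (chromosome 6, 40923272 to 40940245) encodes transforming growth factor alpha, a ligand of the EGF receptor. It had 5.96 and 6.48 FPKM in injured libraries, against 9.33 and 11.2 FPKM in uninjured libraries. Both injured libraries were below both uninjured ones, and the log2 change was -0.64 (SE 0.13, limma adjusted p = 0.0172). The gene nrg1 (chromosome 10, 5882253 to 6070492) encodes neuregulin 1, best known as a signal from axons to the ErbB receptors of glial and muscle cells. It had 6.48 and 5.8 FPKM in injured libraries, against 12.2 and 10.2 FPKM in uninjured libraries. Again the groups did not overlap, and the log2 change was -0.77 (SE 0.13, limma adjusted p = 0.0108). Neither call held with 1 injured library left out: the limma adjusted p became 0.0964 without library a and 0.0729 without library b for tgfa, and 0.0549 and 0.0691 for nrg1. Without uninjured library b the call of tgfa was lost as well (limma adjusted p = 0.0667). Markers of inner retinal neurons (15 genes) summed to 913 and 895 FPKM in injured libraries, against 1123 and 1213 FPKM in uninjured libraries, and rod markers (11 genes) to 4669 and 6504 FPKM, against 12995 and 13314 FPKM. All of these markers were above 0 in all 4 libraries. Of the 14 inner retinal neuron markers tested, 2 were higher and 4 lower, and of the 11 rod markers 1 was higher and 10 lower (limma adjusted p under 0.05). Over all genes tested 29.7% were higher and 19.0% lower. Their part in the lower tgfa and nrg1 levels was not tested.

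The ligand btc (chromosome 21, 18183886 to 18209167), which encodes betacellulin, was low in all groups. It had 0.73 and 0.39 FPKM in injured + apobec2 KD libraries, 0.2 and 0.4 FPKM in injured libraries and 1.25 and 0.57 FPKM in uninjured libraries. Only uninjured library a reached 1 FPKM, and btc was therefore not tested.

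Counted together, 5 of the 9 genes could be tested between injured and uninjured cells, with 2 called higher and 2 called lower at a limma adjusted p under 0.05. Over all 16849 genes tested, 29.7% were called higher and 19.0% lower, so that a call in either direction was common in this comparison and the counts of the family are not set apart from it. With quantile normalization, which lowers the median change over all genes by 0.19 on the log2 scale (-0.19), 3795 genes were called higher and 4803 lower, against 4997 and 3206 without it. The directions of hbegfa, hbegfb, tgfa, nrg1 and egfra were the same under either scaling.

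**Figure D2:**
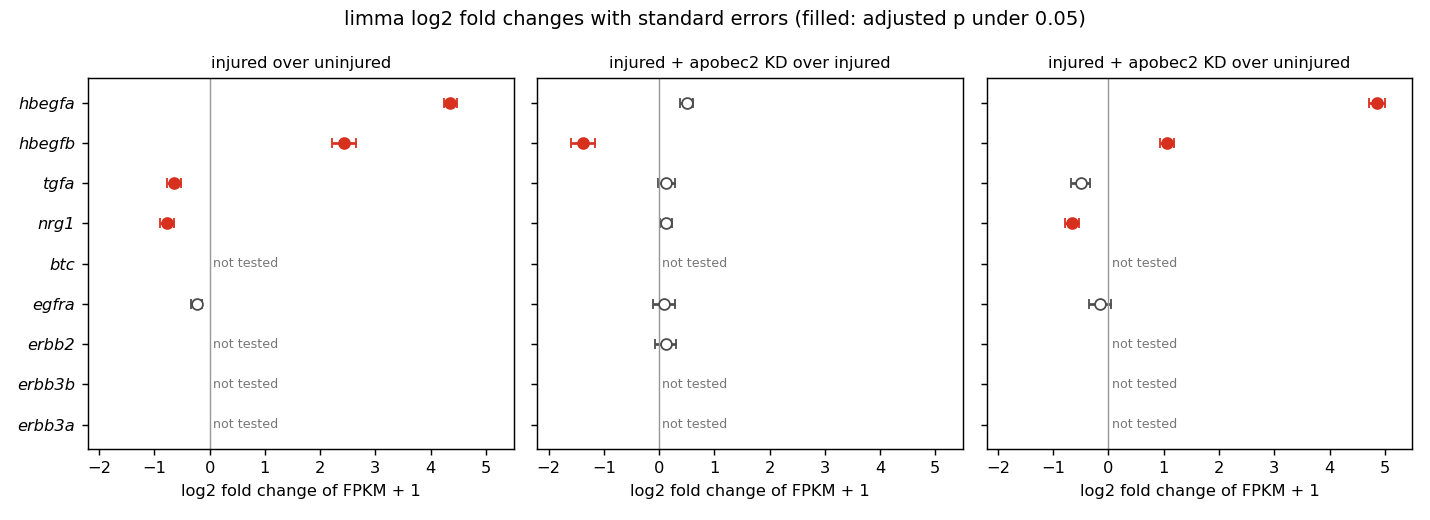
limma log2 fold changes of FPKM + 1 (x axis) of the 9 genes (y axis) with their standard errors, for injured over uninjured, injured + apobec2 KD over injured and injured + apobec2 KD over uninjured cells, where filled points have an adjusted p under 0.05. The hbegfa and hbegfb points lie at 4.36 and 2.43 in the first panel, while in the second hbegfb lies at -1.38 and is the one filled point.

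The changes of the 4 tested ligands altered the make-up of the summed RNA of the 5 ligands. The FPKM of the 5 ligands summed to 58.4 and 54.2 in injured + apobec2 KD libraries, to 47.4 and 44.99 in injured libraries and to 23.2 and 22.8 in uninjured libraries. The groups did not overlap in this sum. The share of hbegfa in it was 75.05% and 69.3% in injured + apobec2 KD libraries, 60.1% and 63.0% in injured libraries and 1.34% and 2.5% in uninjured libraries. In uninjured cells nrg1 and tgfa together made up nearly all of this sum, with 52.8% and 44.9% for nrg1 and 40.3% and 49.3% for tgfa. In injured libraries nrg1 took 13.7% and 12.9% and tgfa 12.6% and 14.4%. Within a library nrg1 and tgfa stayed near each other in all 3 groups, with a tgfa to nrg1 ratio of 0.895 and 1.17 in injured + apobec2 KD libraries, 0.92 and 1.12 in injured libraries and 0.764 and 1.1 in uninjured libraries. The sum leaves out other EGF family ligands. One of them, NRG3 (2 of 2), picked with its values in view, had 15.0 and 13.8 FPKM in uninjured libraries, above nrg1 and tgfa. It had 10.9 and 10.7 FPKM in injured libraries and 12.35 and 13.2 FPKM in injured + apobec2 KD libraries. NRG3 (1 of 2) had 7.73 and 7.73 FPKM in uninjured libraries and 5.0 and 5.58 FPKM in injured libraries. Shares of all EGF family ligand RNA are thus smaller than those given. These sums and shares are descriptions of the libraries and were not tested.

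**Figure D3:**
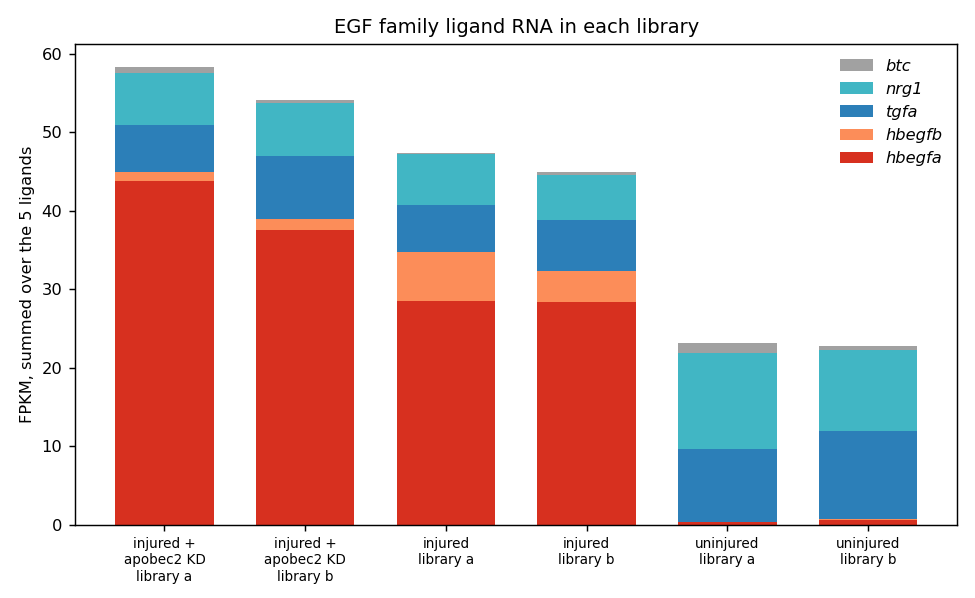
FPKM of the 5 ligands stacked in each library (y axis, summed FPKM, colour gives the ligand), with injured + apobec2 KD, injured and uninjured libraries from left to right. The ligand sum is 58.4 and 54.2, 47.4 and 44.99, and 23.2 and 22.8 FPKM in that order, and hbegfa fills most of it in the libraries of both injured groups but little of it in the uninjured ones.

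Among the 4 receptors, egfra (chromosome 2, 4190332 to 4304948), which encodes a receptor of Hb-egf and Tgfa, was by far the most abundant. It had 7.05 and 10.7 FPKM in injured + apobec2 KD libraries, 7.87 and 8.36 FPKM in injured libraries and 10.0 and 9.46 FPKM in uninjured libraries. The injured libraries lay below the uninjured ones without overlap, whereas the injured + apobec2 KD libraries spanned both other groups. The log2 change in injured over uninjured cells was -0.24 and did not pass the test (SE 0.10, limma adjusted p = 0.112), but with quantile normalization it was -0.40 and passed (limma adjusted p = 0.0275). The share of egfra in the RNA of the 4 receptors was 71.8% and 87.2% in injured + apobec2 KD libraries, 82.7% and 80.2% in injured libraries and 91.3% and 93.2% in uninjured libraries. This sum leaves out 4 ErbB4 genes. Each of them was higher in both uninjured libraries (range 0.74 to 1.9 FPKM) than in both injured ones (range 0.32 to 0.83 FPKM). Knockdown libraries ranged from 0.67 to 1.36 FPKM. After injury ERBB4 (2 of 4) and ERBB4 (4 of 4) were tested and not called (limma adjusted p = 0.0991 and 0.0534). The genes erbb4a and erbb4b were under the level for testing. How many of all genes separate these libraries in the same way was not counted. Shares of all ErbB receptor RNA are thus smaller than those given, and the lower egfra share after injury is limited to the 4 receptors summed. The ratio of hbegfa and hbegfb summed to egfra was 6.38 and 3.66 in injured + apobec2 KD libraries, 4.42 and 3.87 in injured libraries and 0.0359 and 0.0793 in uninjured libraries.

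The other receptors of the 4 summed were near or under 1 FPKM. The gene erbb2 (chromosome 12, 10108665 to 10192429), which encodes the shared partner receptor, had 1.35 and 0.86 FPKM in injured + apobec2 KD libraries, 0.71 and 1.17 FPKM in injured libraries and 0.6 and 0.46 FPKM in uninjured libraries. Both uninjured libraries were below the other 4, and with all genes tested regardless of level the log2 change in injured over uninjured cells was 0.33 (limma adjusted p = 0.184). The gene erbb3b (chromosome 23, 25519749 to 25575005) encodes a neuregulin receptor that zebrafish Schwann cells and other neural crest cells are known to need. It had 0.71 and 0.58 FPKM in injured + apobec2 KD libraries, 0.86 and 0.77 FPKM in injured libraries and 0.25 and 0.21 FPKM in uninjured libraries. Although erbb3b was under the level for testing in all 3 comparisons, the groups did not overlap, and with all genes tested it was higher in injured than in uninjured cells (log2 change 0.56, limma adjusted p = 0.0141). Markers of Schwann cells, oligodendrocytes and neural crest (11 genes) summed to 81.2 and 82.5 FPKM in injured + apobec2 KD libraries, 107.6 and 107.8 FPKM in injured libraries and 65.5 and 66.2 FPKM in uninjured libraries, in the same order as erbb3b. Of the 8 of these genes tested, 5 were higher and 1, the myelin gene mbpa, was lower in injured over uninjured cells. Over all genes tested 29.7% were higher and 19.0% lower. In injured + apobec2 KD over injured cells 1 was higher and 1 lower, against 3.14% and 6.24% of all genes (limma adjusted p under 0.05). The crest and glial factor gene sox10 had 4.42 and 4.84 FPKM in injured + apobec2 KD libraries, 6.75 and 8.03 FPKM in injured libraries and 4.25 and 4.9 FPKM in uninjured libraries, so that its knockdown and uninjured libraries overlapped, and olig1 was listed at 0 in 5 of the 6 libraries. Their part in the erbb3b level was not tested. The second copy, erbb3a (chromosome 6, 7383037 to 7448242), had 0.71 and 0.13 FPKM in injured + apobec2 KD libraries, 0.08 and 0.12 FPKM in injured libraries and 0.1 and 0.02 FPKM in uninjured libraries, and a single library exceeded 0.2 FPKM.

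Ordered by level among the 9 genes, injured + apobec2 KD cells had hbegfa on top. Then came egfra and nrg1, of which egfra was higher without overlap, with tgfa overlapping both, and then hbegfb with erbb2. Injured cells had hbegfa on top, egfra second, and then tgfa, nrg1 and hbegfb, whose libraries overlap. In uninjured cells nrg1, tgfa and egfra were at the top, where tgfa overlaps with the others but nrg1 lay above egfra. The gene hbegfa overlaps with btc and erbb2 well below them.

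Knockdown of apobec2 in injured retinas was compared with the injured group, whose column names refer to a control morpholino. Of the Hb-egf genes hbegfb was lower, while hbegfa had higher values that did not pass the test. The ligand hbegfb had 1.21 and 1.43 FPKM in injured + apobec2 KD libraries, against 6.27 and 3.98 FPKM in injured libraries. Both knockdown libraries were below both injured ones, at 0.258 of the injured mean, and the log2 change was -1.38 (SE 0.21, limma adjusted p = 0.0289). This call is not firm: without a filter on low values the adjusted p from limma was 0.0618, and with any 1 of the 4 libraries left out it lay between 0.0585 and 0.145, with a log2 change between -1.65 and -1.10. The ligand hbegfa had 43.8 and 37.5 FPKM in injured + apobec2 KD libraries, against 28.5 and 28.3 FPKM in injured libraries. Both knockdown libraries were above both injured ones, at 1.43 times the injured mean, but the log2 change of 0.50 did not pass the test (SE 0.12, limma adjusted p = 0.0741). It passed under only 1 of the alternatives, a prior variance with a trend (limma adjusted p = 0.0402). The hbegfa to hbegfb ratio was 36.2 and 26.2 in injured + apobec2 KD libraries, against 4.55 and 7.12 in injured libraries. The knockdown ratios thus lay above all others (log2 difference 2.44), although 2 libraries against 2 cannot pass the threshold (two-sided exact permutation test, p = 0.333, the smallest the design allows).

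The summed markers of microglia and macrophages were, like hbegfb, higher in injured cells than in either other group. The 13 marker genes summed to 43.2 and 28.9 FPKM in injured + apobec2 KD libraries, 372.8 and 394.7 FPKM in injured libraries and 75.5 and 67.3 FPKM in uninjured libraries, and none was at 0 in any library. In injured over uninjured cells 11 of 13 were higher, against 29.7% of all genes tested. The other 2, cd74a and cd74b, were not called. In injured libraries cd74a had 36.3 and 60.1 FPKM, and cd74b had 11.5 and 14.9 FPKM against 21.65 and 15.9 FPKM in uninjured libraries. In injured + apobec2 KD over injured cells all 13 were lower, against 6.24% of all genes tested (limma adjusted p under 0.05). The macrophage gene mpeg1, for example, had 4.06 and 2.46 FPKM in injured + apobec2 KD libraries, 40.4 and 47.0 FPKM in injured libraries and 2.97 and 1.57 FPKM in uninjured libraries. In injured + apobec2 KD over uninjured cells 6 of the 11 tested were higher, as was hbegfb, and 2 were lower, against 22.9% and 13.9% of all genes. The lower ones, cd74a and cd74b, which encode a chaperone of antigen presentation, made up most of the uninjured sum, with 5.43 and 2.35 FPKM in injured + apobec2 KD libraries and 40.3 and 38.6 FPKM in uninjured libraries for cd74a. The cell cycle list (18 genes) followed the same order as hbegfb, with sums of 133.5 and 115.8 FPKM in injured + apobec2 KD libraries, 263.1 and 300.0 FPKM in injured libraries and 40.8 and 41 FPKM in uninjured libraries. The level of hbegfa was highest in the knockdown libraries. Pigment epithelium markers (7 genes) also moved with the groups, at 62.9 and 96.1 FPKM in injured + apobec2 KD libraries, 143.9 and 148.1 FPKM in injured libraries and 12.4 and 11.4 FPKM in uninjured libraries. Cone markers (8 genes) summed to 3130.3 and 2465.7, 5065.5 and 5351.8, and 5128.7 and 4926.5 FPKM in that order of groups. In injured + apobec2 KD over injured cells 7 of these 8 were lower and 0 higher, against 6.24% and 3.14% of all genes tested (limma adjusted p under 0.05). The part of these cells in the hbegfb change was not tested.

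**Figure D4:**
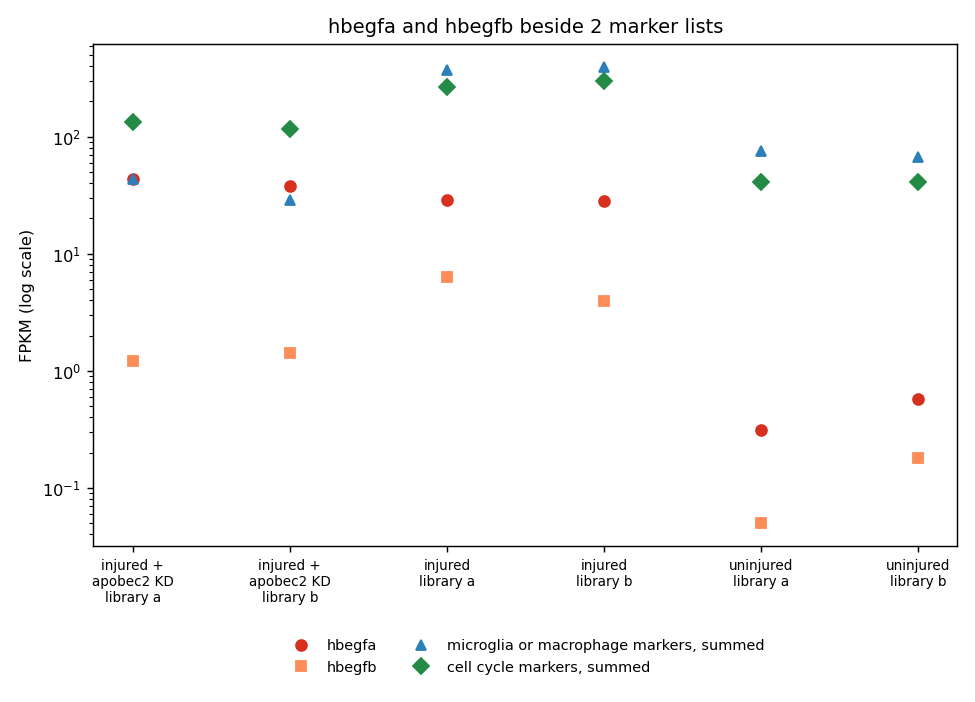
FPKM (log scale) of hbegfa and hbegfb in each library beside the summed FPKM of the microglia or macrophage markers and of the cell cycle markers. In the knockdown libraries the microglia sum (43.2 and 28.9 FPKM) and hbegfb (1.21 and 1.43 FPKM) are both below their injured values, while hbegfa (43.8 and 37.5 FPKM) is above its own.

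The remaining genes of the family gave no call for the knockdown. The ligand tgfa had 5.96 and 8.0 FPKM in injured + apobec2 KD libraries and nrg1 6.66 and 6.82 FPKM, and the log2 changes against injured cells were 0.13 (SE 0.16, limma adjusted p = 0.615) for tgfa and 0.12 (SE 0.11, limma adjusted p = 0.510) for nrg1. For the receptors the log2 changes were 0.09 for egfra (SE 0.20, limma adjusted p = 0.799) and 0.12 for erbb2 (SE 0.19, limma adjusted p = 0.706). The knockdown libraries overlapped with the injured ones for tgfa, egfra and erbb2 but not for nrg1. Of 6 genes tested, 0 were called higher and 1 lower with limma, against 3.14% higher and 6.24% lower of 16680 genes. At an unadjusted limma p under 0.05, 1 was higher and 1 lower. With quantile normalization 737 of all genes were called higher and 850 lower, against 523 and 1040 without it.

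Injured + apobec2 KD cells were also compared with uninjured cells, the same 2 uninjured libraries as for the injured group. The log2 change of hbegfa was 4.86 (SE 0.15, limma adjusted p = 0.000603), and 22 of 16423 genes tested had a larger increase. That of hbegfb was 1.06 (SE 0.12, limma adjusted p = 0.00466). Both genes were under 1 FPKM in uninjured cells and entered this comparison only through the knockdown libraries. The ligand nrg1 was lower, with a log2 change of -0.65 (SE 0.12, limma adjusted p = 0.0176), but its call was lost without either knockdown library (limma adjusted p = 0.0963 without library a and 0.0831 without library b) or without uninjured library a (0.0736). For tgfa the log2 change of -0.51 did not pass (SE 0.17, limma adjusted p = 0.083), nor did that of -0.15 for egfra (SE 0.20, limma adjusted p = 0.598). Of 5 genes tested, 2 were called higher and 1 lower, against 22.9% higher and 13.9% lower of all genes. With quantile normalization 2949 of all genes were higher and 3130 lower, against 3766 and 2286 without it.

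The genes whose profile over the 6 libraries was most like that of each family member were then found, by the smallest Euclidean distance between centred log2(FPKM + 1) profiles among 11592 gene names. For hbegfa these were timp2b, an inhibitor of matrix metalloproteases, the leptin gene lepa, and atf3, a stress-induced transcription factor, at distances of 0.455, 0.456 and 0.468, where the median gene was at 5.26. The cytokine gene lepa had 37.6 and 32.6 FPKM in injured + apobec2 KD libraries, 20.9 and 23.5 FPKM in injured libraries, and 0.24 FPKM and a listed 0 in uninjured libraries. Like hbegfa, by whose profile they were chosen, all 3 genes were highest in the knockdown libraries. For hbegfb the most alike were the tetraspanin gene cd9b, the transcription factor gene cebpa, and ctsd, which encodes the lysosomal protease cathepsin D, at 0.309, 0.404 and 0.458 (median 2.46). The gene ctsd had 78.0 and 82.1 FPKM in injured + apobec2 KD libraries, 220.2 and 195.1 FPKM in injured libraries and 46.3 and 48.1 FPKM in uninjured libraries. The 2 Hb-egf genes shared none of the 3 neighbours kept for each, which their unlike values in the knockdown libraries made likely beforehand.

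For nrg1 the semaphorin receptor gene plxna4 was nearest, at 0.064, followed by GRM2 (1 of 2), named after a metabotropic glutamate receptor, and olfm1a, which encodes an olfactomedin (median 1.11). The gene plxna4 had 6.75 and 7.02 FPKM in injured + apobec2 KD libraries, 6.83 and 6.08 FPKM in injured libraries and 12.7 and 11.1 FPKM in uninjured libraries, so its values stayed close to those of nrg1. For tgfa the nearest were prrt1, DGKA (1 of 2) and the GABA receptor subunit gene gabra6b (0.122 to 0.132, median 1.02). For egfra they were celf4, which encodes an RNA-binding protein, tasp1 and phactr4b (0.138 to 0.155, median 0.812). Small distances are common for genes that change little, as the medians show.

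Other genes of the pathway were then counted by list. Of the other EGF family ligands 4 could be tested, and in injured over uninjured cells 0 were higher and 3 lower (limma adjusted p under 0.05, with 0 higher at an unadjusted p under 0.05 as well). These include the neuregulin genes nrg2b, with 1.17 and 1.15 FPKM in injured libraries against 2.04 and 2.29 FPKM in uninjured libraries, and NRG3 (1 of 2), with 5.0 and 5.58 FPKM against 7.73 and 7.73 FPKM. The list median was -0.43 against 0.08 for all genes tested, of which 19.0% were lower, and egf itself did not pass (log2 change -0.21, limma adjusted p = 0.450). Of the other ErbB receptors 2 were tested after injury, and 0 passed in either direction, with 0 higher and 1 lower at an unadjusted limma p under 0.05.

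Of 11 genes for ligand shedding, 5 were higher and 3 lower in injured over uninjured cells (median 0.39), where 29.7% of all genes tested were higher and 19.0% lower. The metalloprotease gene adam8a had 18.2 and 17.8 FPKM in injured libraries and 0.12 in both uninjured ones, a log2 change of 4.08 (SE 0.09, limma adjusted p = 0.000527). Under 1 FPKM in uninjured cells, adam8a entered this comparison only through the injured libraries. The gene rhbdf1, whose mammalian product escorts Adam17 to the surface, had 9.11 and 10.1 FPKM in injured libraries and 2.22 and 3.05 FPKM in uninjured libraries. The main sheddase of Hb-egf and Tgfa in mammals, Adam17, has copies here that moved apart. The copy adam17a, chosen after its values were seen, had 20.0 and 18.9 FPKM in injured libraries and 8.99 and 10.2 FPKM in uninjured libraries (log2 change 0.95, limma adjusted p = 0.00413). The copy adam17b had 13.8 and 16.5 FPKM in injured libraries and 23.1 and 24.4 FPKM in uninjured libraries (log2 change -0.62, limma adjusted p = 0.0171). In injured + apobec2 KD over injured cells 1 of 11 was called, in the lower direction, where 6.24% of all genes tested were lower. This was adam8a, at 11.2 and 11.1 FPKM in knockdown libraries against 18.2 and 17.8 FPKM in injured libraries (log2 change -0.65, limma adjusted p = 0.0293).

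Inside the cell, receptor signals pass through adaptors to Ras and Mapk and through Pi3k to Akt. In the same comparison, set against 29.7% higher and 19.0% lower over all genes, 7 of 24 tested adaptor and Ras/Mapk genes were higher and 3 lower, a share of higher genes near that background, with nras and the docking protein gene gab1 leading upward and the phosphatase gene ptpn11b and the kinase gene braf downward. Of 14 Pi3k, Akt and Plc genes, 2 were higher and 6 lower, against the same background, whose larger direction turns to lower with quantile normalization. The largest fall was that of pik3r3a, which encodes a regulatory subunit of Pi3k, with 19.6 and 24.4 FPKM in injured libraries against 59.9 and 50.5 FPKM in uninjured libraries. It was higher in knockdown libraries than in injured ones, at 39.3 and 44.5 FPKM (log2 change 0.91, limma adjusted p = 0.0349). In that comparison 1 of the 14 was higher and 1 lower, against 3.14% and 6.24% of all genes tested. The lower one, plcg2, had 0.22 and 0.5 FPKM against 1.56 and 1.51 FPKM (log2 change -0.91, limma adjusted p = 0.0295). Under 1 FPKM in both knockdown libraries, plcg2 entered this comparison only through the injured libraries. Of 23 adaptor and Ras/Mapk genes 1 was higher, ptpn11b (log2 change 0.58, limma adjusted p = 0.0401), and 0 were lower.

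Of 13 genes that inhibit ErbB receptors or move them to degradation, 4 were higher and 1 lower after injury, near the 29.7% of all genes that were higher, led by the phosphatase gene ptpn1 upward. The single gene that fell, lrig2, had 7.09 and 9.07 FPKM in injured libraries and 14.2 and 15.0 FPKM in uninjured libraries. In the knockdown comparison 0 of the 13 passed in either direction, with 2 higher and 1 lower at an unadjusted limma p under 0.05. A gene outside the list, ERRFI1 (2 of 2), was chosen after its values were seen and is named after an inhibitor that binds the EGF receptor kinase in mammals. It had 19.0 and 21.7 FPKM in injured + apobec2 KD libraries, 8.87 and 8.52 FPKM in injured libraries and 2.98 and 2.82 FPKM in uninjured libraries. The groups did not overlap, in the same order as hbegfa, and it was higher in knockdown than in injured cells (log2 change 1.14, limma adjusted p = 0.0119). The listed copy errfi1 changed less and was not called in the knockdown comparison. It had 21.83 and 21.41 FPKM in injured + apobec2 KD libraries, 17.11 and 17.47 FPKM in injured libraries and 15.56 and 15.61 FPKM in uninjured libraries. Its change after injury did not pass (log2 change 0.14, limma adjusted p = 0.261). Of 11 Mapk feedback genes 1 was higher and 2 lower after injury, against 29.7% and 19.0% of all genes tested. The higher one, spry4, a Sprouty inhibitor of receptor kinase signalling, had 8.18 and 8.87 FPKM in injured libraries and 2.59 and 2.68 FPKM in uninjured libraries. The Mapk phosphatase gene dusp1 had 99.6 and 102.8 FPKM in injured libraries and 193.3 and 205.1 FPKM in uninjured libraries. In injured + apobec2 KD over injured cells 2 of the 11 were higher and 0 lower, against 3.14% and 6.24% of all genes tested. Both were Mapk phosphatases, with dusp5 at 28.8 and 28.7 FPKM in knockdown libraries against 18.3 and 19.9 FPKM in injured libraries and dusp4 at 27.5 and 29.2 FPKM against 19.2 and 18.6 FPKM. At an unadjusted limma p under 0.05, 7 of the 11 were higher and 0 lower, a share that was not counted over all genes. The list median was 0.34, against -0.02 for all genes tested.

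The last lists held nuclear targets of the pathway and regeneration genes. Of 14 immediate early and Ets genes, 9 were higher and 2 lower in injured over uninjured cells, with a median log2 change of 1.73 against 0.08 for all genes tested. Of all genes tested 29.7% were called higher and 19.0% lower. The AP-1 genes fosl1a and jun led the increase. Of these, fosl1a was under 1 FPKM in uninjured cells and entered that comparison only through the injured libraries. The level of fosl1a was 64.2 and 59.6 FPKM in injured + apobec2 KD libraries, 25.7 and 31.9 FPKM in injured libraries and 0.67 and 0.47 FPKM in uninjured libraries, and it was higher in knockdown than in injured cells (log2 change 1.08, SE 0.14, limma adjusted p = 0.0204). The level of jun was 232.2 and 225.4 FPKM in injured + apobec2 KD libraries, 219.2 and 212.1 FPKM in injured libraries and 11.4 and 11.6 FPKM in uninjured libraries, and its knockdown difference did not pass (log2 change 0.08, limma adjusted p = 0.609). The members that fell were etv5a and etv5b, Ets factors that are known targets of Fgf and Mapk signals, with etv5b at 23.4 and 24.0 FPKM in injured libraries against 56.4 and 57.6 FPKM in uninjured libraries. Genes of this list thus changed in both directions. The list was chosen with earlier results of these data known, so its counts are no test of it.

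Of 11 genes of the MG regeneration response, 8 were higher and 2 lower in injured over uninjured cells (median 1.59), against 29.7% and 19.0% of all genes tested. The list holds genes of this response and was chosen with earlier results of these data known. A high count was thus likely beforehand and is no test of the list. The proneural gene ascl1a, which zebrafish MG are known to need to re-enter the cell cycle, had 22.9 and 27.2 FPKM in injured libraries and 0.24 and 1.13 FPKM in uninjured libraries. The metalloprotease gene mmp9 had 121.8 and 106.9 FPKM in injured libraries and 0.7 and 0.44 FPKM in uninjured libraries. Under 1 FPKM in uninjured cells, mmp9 entered this comparison only through the injured libraries. The genes that fell, pax6a and pax6b, encode eye and progenitor transcription factors that inner retinal neurons also express. In injured + apobec2 KD over injured cells 0 of the 11 were higher and 1 lower with limma, with 2 higher and 4 lower at an unadjusted p under 0.05. Over all genes tested 3.14% were called higher and 6.24% lower. The gene of the list called lower was olig2, with 2.5 and 2.15 FPKM in knockdown libraries against 5.57 and 6.55 FPKM in injured libraries (log2 change -1.09, limma adjusted p = 0.0164).

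**Figure D5:**
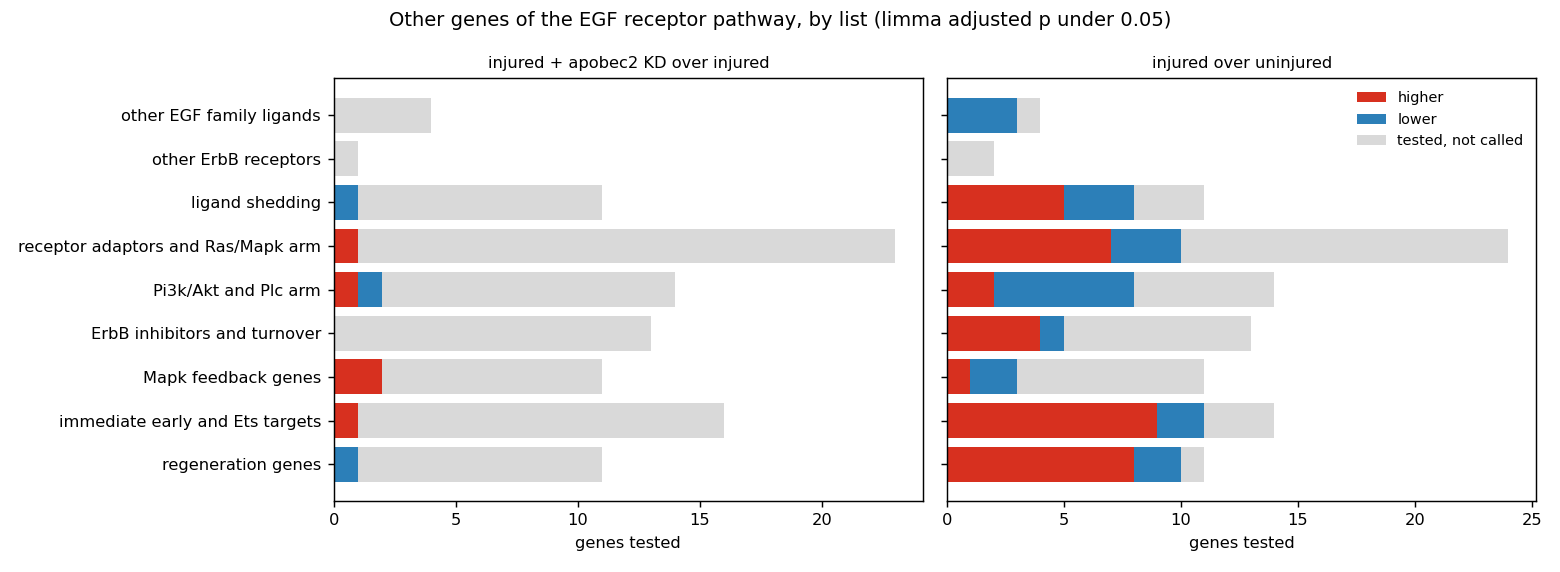
Number of genes tested (x axis) in each pathway list (y axis), for injured + apobec2 KD over injured (left) and injured over uninjured cells (right), with those called higher in red, those called lower in blue and the others in grey (limma adjusted p under 0.05). After injury 9 of 14 immediate early and Ets genes and 8 of 11 regeneration genes are higher, against 29.7% of all genes tested. The lists were chosen with earlier results of these data known, so these counts are no test of them. No list has more than 2 calls in the knockdown comparison, where 3.14% of all genes tested are higher and 6.24% lower.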

How the data were processed

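RNA of GFP+ cells sorted from zebrafish retinas was sequenced in 6 libraries. The authors deposited FPKM per gene and library in a table whose layout is that of Cuffdiff. Per the labels CASAVA, TopHat and Bowtie2 were used, while versions, build, annotation and the treatment of reads shared between gene copies are not given in the sources used here. Columns with the authors' group means, fold changes, p-values and q-values were not used, nor were 6 further per-library columns. FPKM carry no depth, so no counting interval is given.

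Rows of one name were summed. Groups were compared with limma 3.58.1 (lmFit, eBayes) in R 4.3.3 on log2(FPKM + 1), in the 4 libraries of the groups compared, for genes that reached 1 FPKM in 2 or more of these. A tested gene under 1 FPKM in both libraries of a group thus entered only through the other group. This holds for listed genes and markers as well. Tests were two-sided, with Benjamini-Hochberg adjustment over all genes tested and a threshold of 0.05. The steps were tested on simulated data. Other steps used Python 3.11.15, NumPy 2.4.6 and pandas 2.3.3, and Matplotlib 3.10.9 for figures. The family and the lists were chosen with earlier results of these data known. Named beside the family were, per pathway list and comparison, at most the 2 called genes with the largest log2 change in each direction, and, for members with a group mean of at least 5 FPKM, the 3 genes of most similar profile. Exceptions are marked, and the single marker genes named were picked with their values in view, as were egf and the knockdown values of jun. Alternatives changed the pseudocount (0.1), the scaling (quantile or median of ratios), the prior variance (with a trend), the libraries fitted (all 6, or each left out in turn), the filter (none, or a group mean of 5 FPKM) and the treatment of repeated names (highest row only).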

Additional observations from a re-analysis of the deposited data

How the results depend on the processing

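The calls of hbegfa and hbegfb in both comparisons with uninjured cells held under every alternative that gave a value. With a pseudocount of 0.1 their log2 changes in injured over uninjured cells became 5.77 and 4.64. Family genes called, leaving out 1 library at a time, numbered 2 to 4 for injured over uninjured (4 with all libraries), 0 to 0 for injured + apobec2 KD over injured (1) and 2 to 3 for injured + apobec2 KD over uninjured (3). For the knockdown against injury the count was 2 with a trend in the prior variance and 0 without a filter. Over all genes, the same leave-outs gave 4463 to 5280 calls (4669 and 5138 between) against 8203 with all libraries, 154 to 265 (155 and 177 between) against 1563, and 2558 to 3221 (3054 and 3063 between) against 6052, in that order of comparisons. The 1563 calls became 1022 with a pseudocount of 0.1, 2357 with all 6 libraries in the fit and 925 without a filter. Leaving out a library leaves an arm of 1, which is then assumed to vary like the other group. Sign changes came only from such fits and only for uncalled values: against injured cells, erbb2 was at -0.0505 without knockdown library a and -0.0537 without injured library a, tgfa at -0.052 and egfra at -0.179 without knockdown library b, and against uninjured cells egfra was at 0.119 without knockdown library a. Of 190 alternative values for single genes, 170 kept direction and side of the threshold, 13 lost the call and 2 gained it. No paired analysis was possible because column indices cannot be matched to the replicate numbers of the sample titles. The depth of the libraries is unknown, so levels under 1 FPKM, as for btc, erbb3a and erbb3b, have no stated precision. The cause of these changes was not tested.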
